A study of Mus musculus with 6 samples.

Results

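MiR-128 was followed here through its 3 mature strands, the guide strand mmu-miR-128-3p and the passenger strands mmu-miR-128-2-5p and mmu-miR-128-1-5p (written below without the species prefix). They were chosen by name among the 1390 mature miRNAs counted in whole mouse thymus, and all 3 were found. The small-RNA libraries came from thymus of wild-type C57BL mice aged 5 weeks. The 3 control mice received no irradiation. The 3 irradiated mice were exposed to X-rays (6 Gy at 800 cGy per minute, 40 cm away), and all thymuses were taken 24 h later. No transgene, deletion or drug was part of either group. The 2 groups were compared to see how irradiation changed the miRNA content of the organ.

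MiRNAs are cut from a hairpin RNA by the enzymes Drosha and Dicer. One arm of the hairpin, the guide, is loaded into an Argonaute protein and lowers the output of messenger RNAs that pair with its seed (bases 2 to 8), while the other arm, the passenger, is mostly degraded. MiR-128 is best known from neurons, and it is also made in immature T cells. Its genes lie in introns of Arpp21, a gene active in neurons and immature thymocytes, and of R3hdm1, a broadly expressed gene for an R3H-domain RNA-binding protein.

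The guide is identical from both genes, so its reads cannot be assigned to a locus, whereas each passenger strand has its own sequence and reports on 1 locus. The mature strands are shown to make this visible, with the seed in capitals (sequences as deposited, identical to RefSeq on GRCm38.p6).
miR-128-3p (both loci): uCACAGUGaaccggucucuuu
miR-128-2-5p (Arpp21 locus): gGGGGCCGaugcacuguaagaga
miR-128-1-5p (R3hdm1 locus): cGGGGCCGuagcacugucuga

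Counted from 1 at the 5′ end, the passenger strands match at 16 of the first 21 positions. The differences, from miR-128-1-5p to miR-128-2-5p, are C1G, U9A, A10U, C18A and U19A. Both passengers therefore carry the same seed, GGGGCCG, which no other miRNA in the table has. The hairpins show where the strands sit, with the mature strands in capitals.
Mir128-2 (chr9:112118636-112118711, minus strand, GRCm38): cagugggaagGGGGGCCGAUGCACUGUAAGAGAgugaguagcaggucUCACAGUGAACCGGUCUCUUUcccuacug
Mir128-1 (chr1:128202361-128202430, plus strand, GRCm38): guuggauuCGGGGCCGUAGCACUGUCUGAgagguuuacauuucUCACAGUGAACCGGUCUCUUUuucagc

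Mir128-2 is 76 bases long and lies within Arpp21, on the same strand. It falls in an intron of all 9 GENCODE M21 transcripts of Arpp21 that span it, which in transcript Arpp21-223 is intron 19 of 20 (chr9:112067310-112119182). Mir128-1 is 70 bases long and lies within R3hdm1, also on the same strand. It is intronic in both spanning transcripts and sits in intron 19 of 26 of R3hdm1-201 (chr1:128197098-128211204). The predicted minimum free energy of folding was −37.3 kcal/mol for the Mir128-2 hairpin and −29.3 kcal/mol for Mir128-1, with 18 and 15 of the 21 guide bases paired.

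The guide seed is shared exactly by 1 other miRNA of the table, miR-6539, which had 14 to 19 reads in control and 0 to 9 in irradiated libraries. MiR-27a-3p and miR-27b-3p carry the same 7 bases shifted by 1 position, so their own seeds differ in register. They are shown for that comparison, seeds in capitals.
miR-27a-3p: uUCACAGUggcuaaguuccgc
miR-27b-3p: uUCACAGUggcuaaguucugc

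Library totals ranged from 7730641 to 9287017 counts, and 828 to 924 miRNAs were counted per library. Levels are given as CPM (counts scaled to a library total of 1000000), either of the raw total or scaled by trimmed-mean (TMM) factors, which ranged from 0.823 to 1.39. A count of 0 allows up to 3 reads, or 0.278 to 0.428 TMM-scaled CPM depending on the library. These limits and all count intervals cover counting error only, since duplicate reads of 1 molecule cannot be recognised. The labels do not say more of the replicates than 3 mice per group, and p-values measure the spread between these libraries. Change was tested with edgeR's quasi-likelihood test over all 519 miRNAs that passed its low-count filter, with Benjamini-Hochberg adjustment over all of them and a threshold of 0.05.

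The labelled tissue was checked first. The miR-181 strands that mark thymocytes were abundant in control libraries (miR-181a-5p at 61698 to 117812 TMM-scaled CPM), and miR-205-5p, made by thymic epithelial cells, was at 616 to 789. MiR-124-3p, the defining miRNA of neurons, was at or near the detection limit in control libraries, with 0.285 to 0.464 TMM-scaled CPM. In irradiated libraries it was low but above their 3-read limits of 0.319 to 0.391 CPM, at 0.849 to 1.91. It did not pass the low-count filter, so its change was not tested. The other strand of this miRNA, miR-124-5p, did pass that filter.

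The guide strand miR-128-3p was among the 12 most abundant miRNAs of each control thymus and was a minor species after irradiation. It had 122188, 125211 and 145227 reads in control replicates 1, 2 and 3. In irradiated replicates 1, 2 and 3 it had 1672, 2294 and 3829 reads. Its rank among the miRNAs of a library was 11, 12 and 11 in control and 110, 111 and 87 in irradiated mice. The groups did not overlap, and every irradiated library was far below every control library.

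In TMM-scaled units miR-128-3p stood at 17430, 11620 and 17819 CPM in control replicates 1, 2 and 3. The irradiated values were 218, 274 and 407 CPM. The mean went from 15623 ± 3472 to 299.5 ± 96.8 CPM (SD, n = 3 per group). EdgeR put the log2 fold change at −5.70 ± 0.36 (SE), which is 52.2-fold lower (adjusted p of 4.0e-06). Without scaling factors the control libraries were closer together, at 14336, 16197 and 17627 CPM, because control replicate 2 had the largest TMM factor. In irradiated libraries replicate 3 was the highest and replicate 1 the lowest on either scale.

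**Figure D1:**
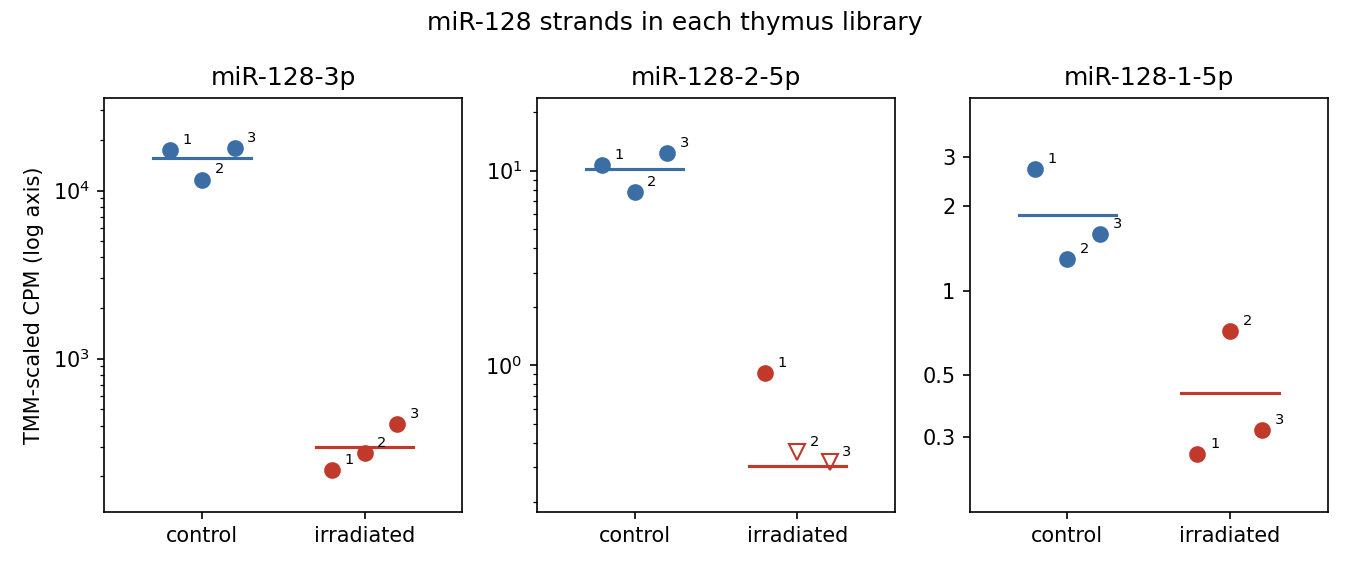
Level of each miR-128 strand in each library, in TMM-scaled CPM on log axes that differ between panels; circles are libraries numbered by replicate, horizontal lines are group means, and open triangles mark a count of 0 drawn at the 3-read limit. Control libraries (blue) lie above all irradiated libraries (red) for each strand, by the widest margin for miR-128-3p, and 2 of the 3 irradiated libraries had no miR-128-2-5p read.

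Together the 3 strands made up 1.61% ± 0.165 of all control counts and 0.0292% ± 0.0111 of all irradiated counts (SD, n = 3 per group). An exact two-sided permutation test gave p = 0.1, the smallest that 3 against 3 libraries allow. Almost all of this was the guide.

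Among all tested miRNAs 61.3% passed the edgeR threshold, 33.5% with a lower and 27.7% with a higher level after irradiation, and in 36.6% no irradiated library reached the lowest control. Each of the 3 miR-128 strands was lower by both criteria. The passengers entered the test only through their control libraries, 3 of 3 above the filter's level against 0 of 3 irradiated ones, so their calls add no independent support. In this fit the guide had the largest decrease of the 311 tested miRNAs averaging at least 10 CPM, and number 3 of all 519. The 2 larger fitted decreases, of a predicted miRNA and of miR-18b-3p, started from control means of 4.74 and 1.66 CPM and had no irradiated read. Decreases of nearly the same size were those of miR-181b-5p (−5.39 on the log2 scale), miR-181a-1-3p (−5.32) and miR-18b-5p (−5.22).

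**Figure D2:**
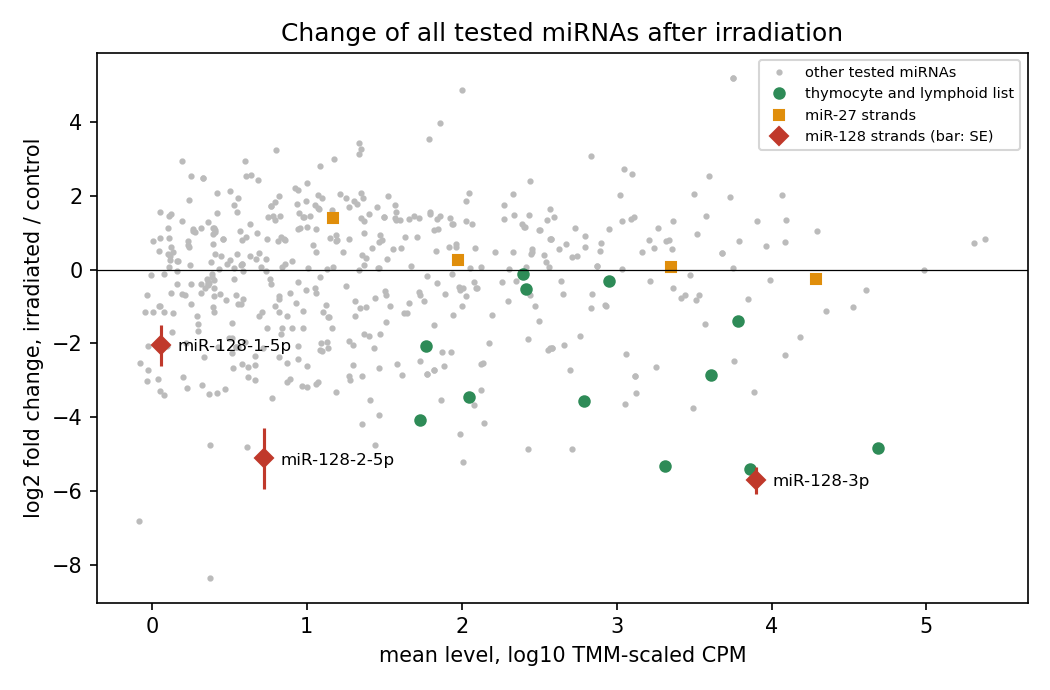
Log2 fold change of irradiated over control against mean level (log10 TMM-scaled CPM) for the 519 tested miRNAs, with the miR-128 strands (red, bars are SE), the thymocyte and lymphoid list (green) and the miR-27 strands (orange). MiR-128-3p is the lowest point at high abundance at −5.70, with miR-181b-5p beside it at −5.39, while the miR-27 strands lie between −0.26 and 1.39.

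A change of scaling factors shifts the log2 changes of all miRNAs by nearly the same amount. Values relative to the median of the table therefore stay nearly in place by construction. The log2 change of miR-128-3p itself was −5.70 (TMM), −5.60 (median-of-ratios), −5.78 (totals) and −5.28 (upper quartile). Under TMM scaling the median log2 change over the table was 0.01, and it moved to 0.12 under median-of-ratios scaling, to −0.13 under plain totals and to 0.44 under upper-quartile scaling. Relative to that median miR-128-3p changed by −5.72 (TMM), −5.73 (median-of-ratios), −5.66 (totals) and −5.72 (upper quartile). The split of calls over the whole table was 144 higher and 174 lower with TMM and 206 higher and 139 lower with upper-quartile factors. In the authors' deposited table the log2 fold change of miR-128-3p is −5.65 with an adjusted p of 5.8e-58.

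MiR-128-2-5p, the passenger made from the Arpp21 intron, was counted at low depth in every control library and in 1 irradiated library. It had 75, 84 and 100 reads in control replicates 1, 2 and 3. Irradiated replicate 1 had 7 reads, and replicates 2 and 3 had 0. The groups did not overlap. The mean went from 10.3 ± 2.27 to 0.304 ± 0.527 TMM-scaled CPM (SD, n = 3 per group) and edgeR gave a log2 fold change of −5.11 ± 0.83 (SE) at an adjusted p of 6.1e-04. Pooled over each group, 259 against 7 reads is a 40.01-fold lower level (95% exact counting interval 19.1 to 100.5). Without irradiated replicate 1 no irradiated read was left and the fitted log2 change was −9.49, a value set by the fit's prior rather than by reads. The authors' deposited table gives −4.91 with an adjusted p of 0.00965.

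MiR-128-1-5p, the passenger made from the R3hdm1 intron, was near the detection limit throughout. It had 19, 14 and 13 reads in control replicates 1, 2 and 3. The irradiated libraries had 2, 6 and 3 reads. The groups did not overlap, with the nearest pair of libraries at 0.716 and 1.30 TMM-scaled CPM. The mean went from 1.87 ± 0.744 to 0.432 ± 0.248 TMM-scaled CPM (SD, n = 3 per group) and the edgeR log2 fold change was −2.05 ± 0.56 (SE, adjusted p of 0.0099). Without control replicate 1 the change was −1.66 and missed the threshold, with an edgeR adjusted p of 0.0564 (its 14 alternatives span 0.00715 to 0.0564). The pooled reads, 46 against 11, give a 4.52-fold lower level (95% exact counting interval 2.31 to 9.68). In the authors' deposited table the values are −2.07 and an adjusted p of 0.0398.

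The passenger reads were split by locus. They do not give the share of miR-128 made at each locus, since survival and capture of each passenger were not measured. In control thymus the Arpp21 strand was 79.8% of 94 passenger reads in replicate 1 (95% Clopper-Pearson interval 70.2% to 87.4%). It was 85.7% of 98 in replicate 2 (77.2% to 92.0%) and 88.5% of 113 in replicate 3 (81.1% to 93.7%). The control libraries thus lay close together, with most passenger reads from the Arpp21 locus.

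In irradiated replicate 1 the Arpp21 strand was 7 of 9 passenger reads, 77.8% (39.99% to 97.2%), which overlaps the control intervals. In irradiated replicate 2 it was 0 of 6 (upper bound 45.9%), and in replicate 3 it was 0 of 3 (upper bound 70.8%). The irradiated mean of 25.9% ± 44.9 was below the control mean of 84.7% ± 4.45 (SD, n = 3 per group, exact permutation p = 0.1, the smallest possible).

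**Figure D3:**
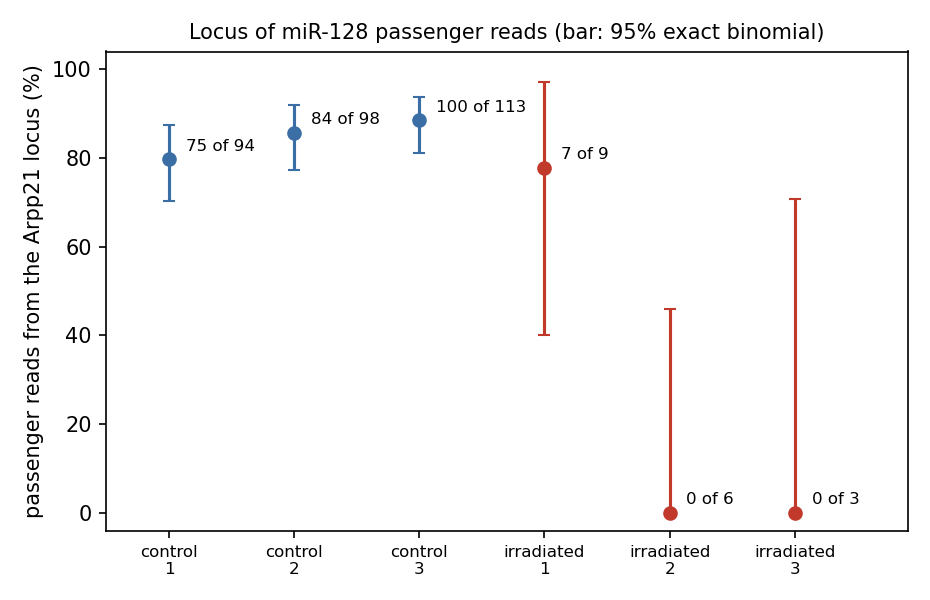
Percent of miR-128 passenger reads that carry the Arpp21-locus sequence in each library, with reads of that strand out of all passenger reads printed beside each point and bars for 95% exact binomial intervals. The control libraries sit between 79.8% and 88.5%, irradiated replicate 1 is at 77.8% of 9 reads, and irradiated replicates 2 and 3 are at 0 of 6 and 0 of 3.

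The difference between the changes of the passengers was tested on their ratio within each library, a comparison chosen after seeing the data. The change of miR-128-1-5p was 3.05 above that of miR-128-2-5p on the log2 scale (limma without moderation, 95% interval 0.31 to 5.80, adjusted p of 0.0449 over 518 miRNAs). This call was lost with any 1 library left out other than irradiated replicate 1, with adjusted p from 0.0992 to 0.128, and at a prior count of 0.5 (adjusted p of 0.0786). The number of irradiated passenger reads, 18 over all 3 libraries, limits this comparison. Both strands passed the low-count filter only through their control libraries. A prior count of 2 caps the fall of miR-128-1-5p (13 to 19 control reads) more tightly than that of miR-128-2-5p (75 to 100). Part of the difference was thus built in, and the test does not settle that the falls differ.

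The guide outnumbered the passengers by a nearly constant factor in control mice. There were 1300 guide reads for each passenger read in control replicate 1, 1278 in replicate 2 and 1285 in replicate 3. Among 135 other miRNAs with both arms in the table and at least 1000 control reads, 25 had a more unequal pair of arms, and the median ratio was 58.4. In irradiated replicates 1, 2 and 3 there were 186, 382 and 1276 guide reads for each passenger read. Control and irradiated values of this ratio did not overlap, though irradiated replicate 3 was next to the controls (exact permutation p = 0.1, the smallest possible). Irradiated replicate 3 had only 3 passenger reads, so the lack of overlap could turn on 1 read.

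Each passenger was also set against the guide separately. In control libraries there were 1629, 1491 and 1452 guide reads for each miR-128-2-5p read. At the pooled control ratio, the irradiated guide reads would go with 5.14 reads of miR-128-2-5p over the 3 libraries, and 7 were counted (exact Poisson interval 2.81 to 14.4). For miR-128-1-5p there were 6431, 8944 and 11171 guide reads for each of its reads in control replicates 1, 2 and 3. Its pooled control ratio would give 0.913 reads, and 11 were counted (5.49 to 19.7). That interval leaves out the spread of these control ratios. Within libraries the change of miR-128-2-5p was 1.05 above that of miR-128-3p on the log2 scale (95% interval −1.71 to 3.81, limma without moderation), an interval that includes 0. This value rests on single irradiated libraries. Without irradiated replicate 1, the only one with reads of this passenger, the difference was 0.0783 (limma adjusted p of 0.901). In limma with moderation the adjusted p was 0.0826 over all libraries, and the test passed without irradiated replicate 2 (difference 1.39, adjusted p of 0.0251) and without irradiated replicate 3 (1.71, adjusted p of 0.00265). The change of miR-128-1-5p was 4.11 above that of miR-128-3p (2.85 to 5.36, limma without moderation, adjusted p of 0.0012). A prior count of 2 caps the fall that the few control reads of miR-128-1-5p can show, so part of this difference was built in. The edgeR log2 changes, −2.05 for miR-128-1-5p and −5.70 for miR-128-3p, were less far apart.

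MiR-128-3p was next compared with other miRNAs whose level follows the same pattern over the 6 libraries. Likeness was the root mean square difference of log2 levels, each centred on its own mean, over 310 miRNAs with a mean of at least 10 CPM. The nearest was miR-181b-5p at 0.32 log2 units (Pearson r of 0.995), then miR-181a-1-3p at 0.37 (0.994) and miR-181a-5p at 0.61 (0.987). Next came miR-130b-5p at 0.65 (0.998), miR-363-3p at 0.74 (0.971) and miR-20b-5p at 0.75 (0.968). These are descriptions over 6 libraries that share their depth and scaling factors, and most of each correlation is the step between the groups. Strands of the miR-181 family, which tunes antigen-receptor signalling in thymocytes, hold the first 3 places. Other miR-181 strands fell less in edgeR, such as miR-181b-1-3p (−4.08 on the log2 scale), miR-181d-5p (−3.56), miR-181c-5p (−3.45) and miR-181a-2-3p (−2.08). MiR-128-3p fell further than each of these (limma without moderation, adjusted p from 3.1e-04 to 0.0489). MiR-363-3p and miR-20b-5p come from the X-linked relative of the miR-17-92 cluster.

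**Figure D4:**
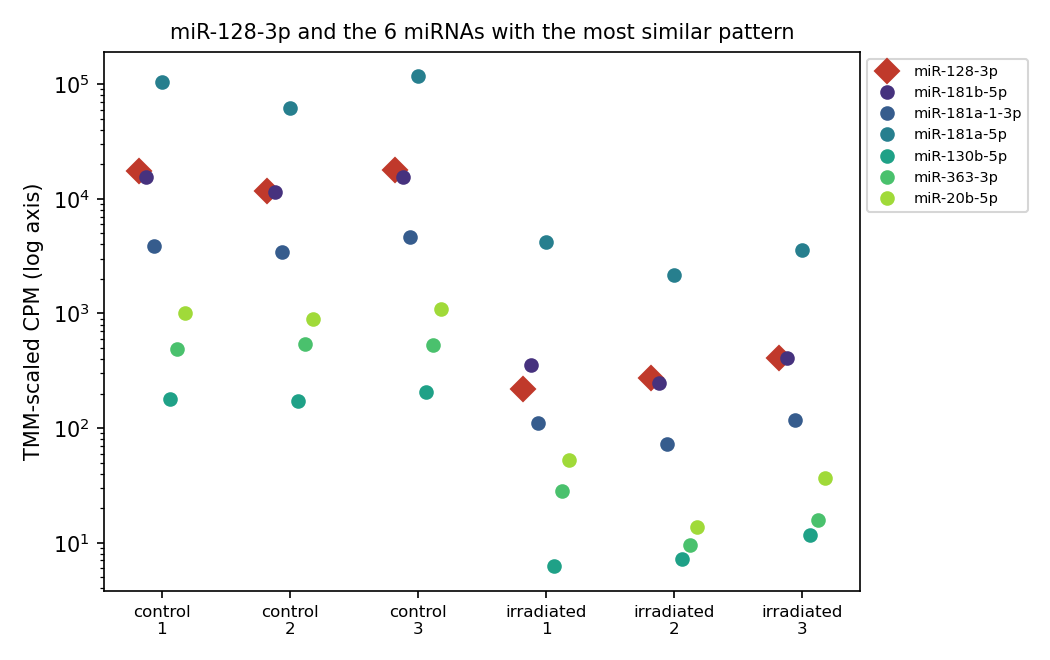
Level in each library (TMM-scaled CPM, log axis) of miR-128-3p (diamonds) and of the 6 miRNAs whose centred log2 pattern is nearest to it (circles). MiR-181b-5p lies close to miR-128-3p in 5 of the 6 libraries and above it in irradiated replicate 1, at 357 against 218 CPM.

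Read for read, miR-128-3p and miR-181b-5p were nearly equal in control thymus and again in 2 of the irradiated libraries. There were 1.13, 1.01 and 1.16 reads of miR-128-3p for each read of miR-181b-5p in control replicates 1, 2 and 3. In irradiated replicates 1, 2 and 3 the ratio was 0.611, 1.11 and 1.00. The values overlap between groups, with irradiated replicate 1 the lowest. The change of miR-181b-5p was 0.32 above that of miR-128-3p (95% interval −0.43 to 1.08, limma without moderation), an interval that includes 0 and reaches a difference of about 1 log2 unit.

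Against the more abundant miR-181a-5p there were 0.168, 0.188 and 0.151 reads of miR-128-3p in control replicates 1, 2 and 3. The ratio was 0.0516, 0.126 and 0.114 in irradiated replicates 1, 2 and 3, all below the controls. The guide of miR-128 fell further by 0.90 on the log2 scale (limma adjusted p of 0.0314). This call was lost without moderation (95% interval −0.26 to 2.05, adjusted p of 0.0986), and also on leaving out irradiated replicate 1 or any single control library (the adjusted p of its 10 alternatives spans 0.00566 to 0.127).

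Over the whole table miR-128-3p fell further than 511 of the 518 other tested miRNAs (98.6%) in limma's test of the ratio within each library. Since every such ratio contains the spread of miR-128-3p itself, the moderated test gives p-values that are too small, and without moderation the number was 508 (98.1%). By limma with or without moderation, 0 miRNAs fell further than miR-128-3p, also at an unadjusted p under 0.05. Some tested miRNAs had identical values, such as miR-142a-3p and miR-142b (log2 difference 2.87 for each), so the miRNAs counted are not all separate observations. For miRNAs with few control reads, the prior count of 2 caps the fall that this test can show. Their call was thus fixed in part beforehand, and these numbers do not rank them against miR-128-3p. MiR-18b-3p, with no irradiated read and an edgeR log2 change of −6.82, still counted as falling less (limma log2 difference 2.84). The 10 miRNAs that did not differ detectably from miR-128-3p without moderation were miR-128-2-5p, miR-181a-5p, miR-181a-1-3p, miR-181b-5p, miR-18b-5p, miR-20b-5p, miR-106a-5p, miR-363-3p, miR-298-5p and miR-5113, named after their values were seen.

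**Figure D5:**
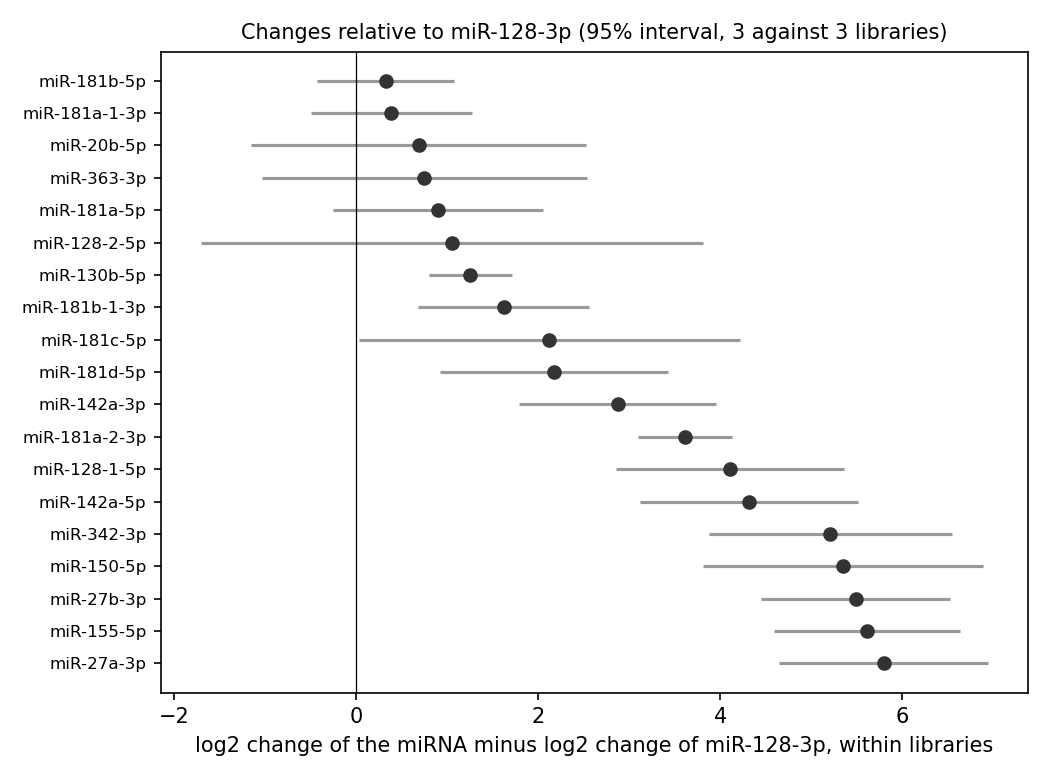
Log2 change of selected miRNAs minus that of miR-128-3p within libraries, with 95% intervals from limma without moderation (3 against 3 libraries). Intervals of miR-181b-5p, miR-181a-1-3p, miR-20b-5p, miR-363-3p, miR-181a-5p and miR-128-2-5p include 0, and those of the other miRNAs shown, miR-128-1-5p among them, lie above it.

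A list of 12 thymocyte and lymphoid miRNAs, all tested, placed this in context. It had 9 lower, 0 higher and 3 not passed, with a median log2 change of −3.16 against 0.01 for all tested miRNAs. Over all tested miRNAs 33.5% were lower. The 9 lower members were all miR-181 or miR-142a strands, so the count describes these families. MiR-150-5p, miR-342-3p and miR-155-5p were the 3 that did not pass. MiR-142a-3p, a miRNA of all blood cells, went from 7195 ± 799.8 to 993 ± 43.2 TMM-scaled CPM (SD, n = 3 per group). There were 2.55, 1.43 and 2.68 reads of miR-128-3p for each of its reads in control replicates 1, 2 and 3, and 0.214, 0.290 and 0.401 in irradiated replicates 1, 2 and 3. MiR-128-3p fell further than miR-142a-3p, with a log2 difference of 2.87 (limma without moderation, 1.79 to 3.96, adjusted p of 0.0022). It also fell further than miR-142a-5p, by 4.32, and than miR-150-5p, which mature lymphocytes make, by 5.35.

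The 4 miR-27 strands split into 1 higher (miR-27b-5p), 0 lower and 3 below the threshold. Over all tested miRNAs 27.7% were higher and 33.5% lower, so the share higher is close to that of the table. MiR-27b-3p, the most abundant, was at 21073 ± 5840 TMM-scaled CPM in control libraries and at 17542 ± 2937 in irradiated ones (SD, n = 3 per group, edgeR adjusted p of 0.418). MiR-27a-3p was at 2196 ± 455 and 2301 ± 496. In control libraries there were 0.646 to 0.850 reads of miR-128-3p for each read of miR-27b-3p, and in irradiated ones 0.0105 to 0.0244. MiR-128-3p was above miR-27a-3p in every control library and below it in every irradiated one.

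Lists of miRNAs from other cell types are given beside these values. Over all tested miRNAs 27.7% were higher. The summed level of the 9 stromal and vascular miRNAs was 95824 to 246485 TMM-scaled CPM in control and 224582 to 344365 in irradiated libraries, with 6 higher, 0 lower and 3 not passed. The 7 epithelial miRNAs summed to 10193 to 13175 and 20681 to 28826 CPM, with 4 higher, 0 lower and 3 not passed. The striated muscle miRNAs summed to 207 to 486 CPM in control libraries and to 608 to 20146 in irradiated ones, where replicate 1 was the lowest. Their sum was led by miR-1a-3p, with 527, 19377 and 13225 CPM in irradiated replicates 1, 2 and 3. Of the 4 tested muscle miRNAs 3 were higher, as were 3 of 4 erythroid and 1 of 4 myeloid ones, and 0 of these were lower. The myeloid share is close to that over all tested miRNAs. The erythroid and muscle calls were each lost in 3 to 7 of 15 alternatives. The erythroid sum was 483 to 731 and 608 to 5101 CPM, and the myeloid sum 34.2 to 61.3 and 50.8 to 165 CPM. Between groups the stromal, erythroid and myeloid sums overlapped, and the epithelial and muscle sums did not. The part of these differences in the miR-128 values was not tested. In whole tissue, fewer cells of a type and less RNA per cell cannot be told apart.

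The brain and neuronal list, 9 miRNAs of which 7 were tested, had 2 higher, 2 lower and 3 not passed, with a median log2 change of 0.20. These shares are close to the 27.7% higher and 33.5% lower over all tested miRNAs. MiR-9-5p, a miRNA of neural progenitors and neurons, rose from 157 ± 29.1 to 352 ± 157 TMM-scaled CPM (SD, n = 3 per group, edgeR adjusted p of 0.0147), which was lost with library totals (edgeR adjusted p of 0.0609, the highest of its 15 alternatives). MiR-138-5p, a brain-enriched miRNA, was higher by 0.87 on the log2 scale (edgeR adjusted p of 0.0475), a call lost in 6 of its 14 alternatives, with adjusted p from 0.00499 to 0.247. MiR-7a-5p fell by 0.76 on the log2 scale (edgeR adjusted p of 0.0348), a call lost in 10 of its 15 alternatives. MiR-219a-5p went from 7.13, 12.3 and 13.5 CPM in control replicates 1, 2 and 3 to 0.913, 0.716 and 1.27 CPM in irradiated ones.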

How the data were processed

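The values used were raw counts of reads on each mature miRNA, as deposited and per the file headers. No aligner, counter or build is named in the labels or headers. The authors' log2 fold change and adjusted p-value columns were read as deposited, and the submitters' processing notes name DESeq2 1.10.1. The labels call the molecule polyA RNA and the samples miRNA. Another 6 count columns match no labelled sample and stayed out.

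The test on counts was edgeR 4.0.16 under R 4.3.3 (TMM factors, filterByExpr at its defaults, robust quasi-likelihood test). Ratios to miR-128-3p were tested with limma 3.58.1 on log2 CPM (prior count 2). The same fit without moderation, added after seeing the data, gives each ratio its own spread with 4 residual degrees of freedom. These tests were run on simulated data in which the reference miRNA did not change. That check does not cover ratios to a reference that falls, as miR-128-3p did. DESeq2 1.42.0 and limma-voom were alternatives, beside other scaling factors, filters, the replicate block and leaving out each library. Hairpins were folded with RNAfold 2.7.2. Coordinates come from RefSeq (GRCm38.p6) and GENCODE M21, with all 3 members matched by name and sequence.

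The members, the lists and the tests were chosen with earlier results of these data known. Named miRNAs were the 3 members, up to 4 of the most abundant tested members of each list, and the 6 with the nearest pattern. The text also names miR-150-5p, miR-342-3p, miR-155-5p, miR-219a-5p, miR-124-3p, miR-124-5p, miR-142b, miR-18b-3p, miR-6539 and the miRNAs of short counts, chosen after their values were seen. Added the same way were miR-181a-2-3p, miR-181b-1-3p, miR-181c-5p and miR-181d-5p.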

Additional observations from a re-analysis of the deposited data

How the results depend on the processing

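MiR-128-3p was lower and past the threshold in all 15 alternatives (log2 change −5.96 to −5.28), and miR-128-2-5p in all 14 that could be run (−9.49 to −4.35). A mean of at least 10 CPM left no value for either passenger. MiR-128-1-5p passed in 13 of 14, and with 1 library left out it ranged from −2.39 to −1.66. With a mean of at least 10 CPM 210 miRNAs passed in edgeR, 87 of them higher, and miR-128-3p fell further than 306 others, because fewer miRNAs were tested. The difference between the passengers was 4.07 at a prior count of 0.5, 3.05 with the replicate block (adjusted p of 0.136 in limma) and 2.40 to 3.98 with 1 library left out; only without irradiated replicate 1 did it still pass among the latter. Same-numbered control and irradiated libraries deviated together with correlations of 0.0994, −0.0244 and 0.230. Different-numbered ones had correlations from −0.254 to 0.108. These values show no clear pairing by number, and 3 libraries per group cannot exclude it. With the replicate block 298 miRNAs passed in edgeR, against 318.

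Among miRNAs that did not pass, signs near 0 reversed. MiR-27a-3p was at −0.0449 with library totals, −0.18 in the set averaging at least 10 CPM and −0.14 to 0.36 with 1 library left out. MiR-27b-3p was at 0.17 with upper-quartile factors and −0.45 to 0.05 with 1 library left out (0.0513 without control replicate 1). MiR-27a-5p was at −0.0064 with a mean of at least 10 CPM. MiR-129-5p was at −0.0793 with library totals, −0.0232 with no filter, −0.21 in the set averaging at least 10 CPM and −0.0888 to 0.36 with 1 library left out. MiR-223-3p was at −0.0444 without irradiated replicate 3 and up to 1.06 with another library left out. The change of miR-128-2-5p relative to miR-128-3p was −0.35 at a prior count of 0.5. The cause was not tested.

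Depth limits the passenger strands most, with 18 reads in the irradiated libraries.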
